A study of Homo sapiens with 372 samples.

Results

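GJA1 and TBC1D32 are 2 neighbouring genes on chromosome 6, and their transcripts were followed across 338 single A2780 cells. The A2780 line was derived from human ovarian cancer and is widely used in culture. The pair was chosen by its measured values: among 8248 genes listed above 0 in at least 30% of both control cells and cells after 16 h of paclitaxel, GJA1 and TBC1D32 had the largest and the next largest rise in mean expression at that time. They are 2 of the 9664 genes of the expression table, and both belong to the 9655 genes listed above 0 in over 30% of cells in some condition. The values at 16 h of paclitaxel against control are therefore a description of how the genes were picked. All 5 comparisons with control use the same control cells.

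Cells were profiled by Smart-seq2, which copies polyA-tailed RNA along its full length, on the Fluidigm C1 capture system. The 6 conditions were untreated control (46 cells), 5 nM paclitaxel for 16 h (56) and 48 h (53), 75 µM celecoxib for 2 h (63) and 16 h (61), and both drugs at the same doses for 16 h (59). Paclitaxel stabilises microtubules, and celecoxib inhibits cyclooxygenase enzymes. The cells of a condition carry 1 code of their own in the sample descriptions, whose meaning is not given in the sources used here, and no replicate culture is named. A condition therefore counts as 1 sample, no test between conditions was made, and each SD is a spread over cells. That code and the drug cannot be told apart.

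The depth in reads is unknown, and genes detected per cell had medians from 6125.5 after 16 h of paclitaxel to 6630 in control, over a range of 4746 to 8499. GAPDH, ACTB and EEF1A1 were at 0 in 0 of 338 cells. The summed RNA per cell relative to the spike-in RNA moved with treatment. On the log2 scale its median differed from control by -0.99 and -0.64 for paclitaxel (16 and 48 h), by -0.76 and -1.52 for celecoxib (2 and 16 h) and by 0.49 for the combination. Differences are therefore given on the deposited scale, E = log2(N/10 + 1) with N the TPM relative to the spike-in, and also with every cell set to the same total. A difference over 1.5-fold (0.585 on the log2 scale) was called past the limit. Of 9 epithelial and ovarian markers only KRT18 was in the table, so the tissue label could not be checked by the others, which were not analysed here. Of markers of other cell types, the table held 2 of 6 for fibroblasts (COL1A2 and COL3A1), 1 of 5 for leukocytes (LYZ) and 0 of 4 for endothelium. At the same total none of the 3 passed the limit in any treatment. In control cells COL3A1 had a mean E-value of 1.86 and was above 0 in 73.9%, against 0.59 and 23.9% for KRT18. COL1A2 was above 0 in 17.4% and LYZ in 37.0% of control cells. On the deposited scale COL3A1 passed the limit downward at 16 h of paclitaxel (-0.78) and of celecoxib (-0.98), as did 37.3% and 43.9% of genes.

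GJA1 encodes connexin 43, a membrane protein whose hexamers in adjoining cells dock to form gap junction channels that pass ions and small molecules. It is the most widely expressed connexin and also binds scaffold and cytoskeletal proteins. TBC1D32, also called broad-minded, belongs by sequence to the TBC domain proteins, many of which act on Rab GTPases. It is known for its part in building the primary cilium and in Hedgehog signalling.

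The genes face away from each other. In GENCODE 44 on hg38, GJA1 (ENSG00000152661.7) spans chr6:121435595-121449727 on the plus strand, and its canonical transcript has 2 exons. TBC1D32 (ENSG00000146350.13) spans chr6:121079494-121334745 on the minus strand, with 32 exons in its canonical transcript. Their outermost annotated starts have 100849 bases between them, and the 4 annotated genes between them include 0 protein-coding genes and 0 genes of the expression table. No annotated gene overlaps either of them. A processed copy of GJA1, GJA1P1, lies at chr5:109051315-109052457 and was not analysed here, and the estimation of transcript levels could share reads between it and GJA1, so GJA1 values carry that uncertainty.

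Bases before a start of each gene are shown because the genes share a neighbourhood and are compared for sequence features that the choice did not use. Both are from RefSeq (GRCh38.p14), read in the direction of transcription, and the capitals mark the motif matches found by a search of both strands. The searched windows were the 250 bases before the RefSeq start, chr6:121435396-121435645 on the plus strand for GJA1 and chr6:121334730-121334979 on the minus strand for TBC1D32. The RefSeq start of GJA1, position 121435646, is also that of its canonical GENCODE transcript, and another transcript starts 51 bases earlier, at 121435595. The GJA1 match lies at chr6:121435598-121435604, and thus within that longer transcript. The sequences are printed up to the outermost annotated start, or to the end of the match where that lies beyond it, as chr6:121435396-121435604 and chr6:121334746-121334979.
GJA1: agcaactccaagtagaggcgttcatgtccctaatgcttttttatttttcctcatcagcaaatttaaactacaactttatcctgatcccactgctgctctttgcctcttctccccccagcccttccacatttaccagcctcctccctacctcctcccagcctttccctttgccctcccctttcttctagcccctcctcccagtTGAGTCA
TBC1D32: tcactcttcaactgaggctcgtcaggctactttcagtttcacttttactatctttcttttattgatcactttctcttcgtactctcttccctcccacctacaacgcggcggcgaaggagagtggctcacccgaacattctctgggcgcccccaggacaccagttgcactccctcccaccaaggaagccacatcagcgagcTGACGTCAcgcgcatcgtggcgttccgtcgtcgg

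The letters searched were the TATA box TATAAA, the AP-1 motif TGANTCA, the Sp1-type GC box GGGCGG and the box known as CCAAT. Also searched were an E box read as CACGTG, the cell cycle homology motif with letters TTTGAA and the cyclic AMP response element TGACGTCA. The GJA1 window held TGAGTCA, 48 to 42 bases before the RefSeq start, and TGANTCA was present in 6.57% of 35116 promoter windows of the same length. The TBC1D32 window held TGACGTCA, 50 to 43 bases before the RefSeq start, a motif present in 1.65% of the windows. A further TBC1D32 window, before the start of its canonical transcript at position 121334480, held no match to any of the 7 motifs. The windows also differed in composition, with 48.0% G and C and 1 CG step for GJA1 against 55.2% and 17 CG steps for TBC1D32, beside medians of 58% and 11 over all windows. The further TBC1D32 window had 62.8% G and C and 24 CG steps, both above those medians. A match is a description of the letters and does not show binding.

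GJA1 was listed above 0 in most cells of every condition. In control cells its E-value ran from 0 to 5.42 with a median of 2.89, and the mean was 2.57 ± 1.66 (SD, 46 cells). After 16 h of paclitaxel the range was 0 to 6.43 with a median of 3.64, and the mean was 3.37 ± 1.48 (SD, 56 cells). Of the paclitaxel cells 71.4% were above the control median, and the ranges overlapped over almost their full width. After 48 h of paclitaxel the range was 0 to 5.70, the median 3.21 and the mean 2.81 ± 1.68 (SD, 53 cells). After 2 h of celecoxib the range was 0 to 5.48, the median 3.39 and the mean 3.07 ± 1.55 (SD, 63 cells), and after 16 h the range was 0 to 4.92, the median 2.80 and the mean 2.60 ± 1.31 (SD, 61 cells). The cells given both drugs had the highest values, from 0 to 7.16 with a median of 4.12 and a mean of 4.06 ± 1.89 (SD, 59 cells).

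TBC1D32 was lower than GJA1 in every condition on this scale, which is TPM-based and so corrected for transcript length. In control cells it ran from 0 to 4.89 with a median of 1.77 and a mean of 1.67 ± 1.51 (SD, 46 cells). At 16 h of paclitaxel the range was 0 to 5.64, the median 2.69 and the mean 2.44 ± 1.37 (SD, 56 cells), and at 48 h the range was 0 to 4.71, the median 2.83 and the mean 2.45 ± 1.42 (SD, 53 cells). Both medians were above that of control, and the ranges overlapped. At 2 h of celecoxib the range was 0 to 5.17, the median 2.54 and the mean 2.28 ± 1.51 (SD, 63 cells), and at 16 h the range was 0 to 4.20, the median 1.91 and the mean 1.87 ± 1.21 (SD, 61 cells). With both drugs the range was 0 to 6.57, the median 3.92 and the mean 3.60 ± 1.82 (SD, 59 cells).

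**Figure D1:**
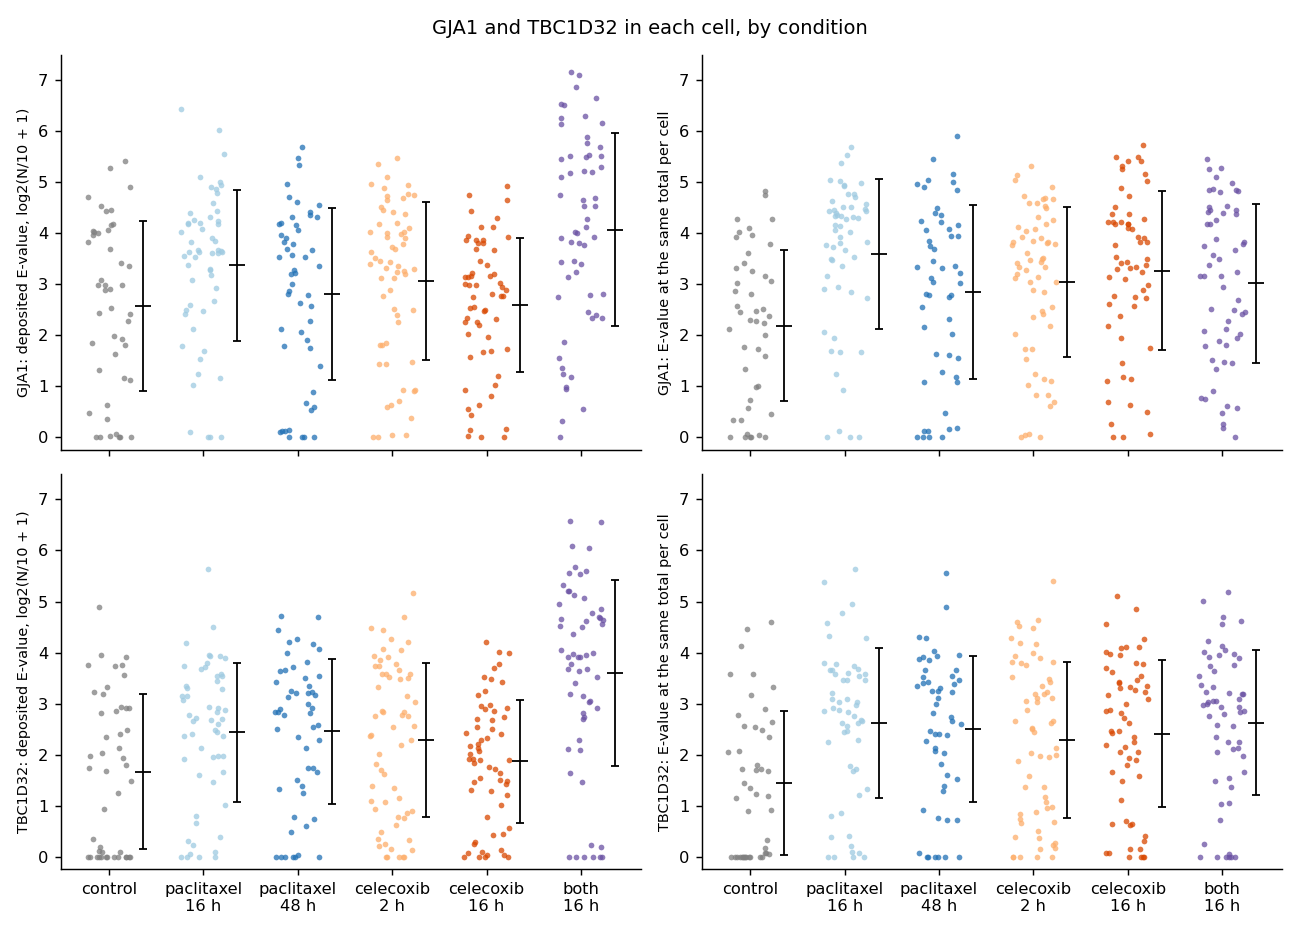
E-values of GJA1 (top) and TBC1D32 (bottom) in each cell, on the deposited scale (left) and at the same total per cell (right). Points are cells, black bars are mean ± SD over cells, and the control mean is the lowest of the 6 in every panel, at 2.57 and 1.67 on the deposited scale.

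The order of the mean levels depended on the scale. On the deposited scale GJA1 ran from both drugs (4.06) through paclitaxel 16 h, celecoxib 2 h, paclitaxel 48 h and celecoxib 16 h to control (2.57). The gaps between neighbours in that order were between 0.03 and 0.69, each below the SD over cells of either condition. That SD is a spread of single cells and cannot decide whether conditions differ, and the spread between samples is unknown. At the same total per cell, paclitaxel 16 h stood highest (3.59), followed by celecoxib 16 h (3.27), celecoxib 2 h (3.05 with both drugs at 3.02 next), paclitaxel 48 h (2.85) and control (2.19). For TBC1D32 both drugs (3.60) stood above paclitaxel 48 h (2.45) by 1.15, and control was lowest (1.67). At the same total the 5 treated conditions lay close together, between 2.28 and 2.63, and the largest gap, 0.83, separated them from control (1.45). Every gap for TBC1D32 was also below the SD over cells, which decides as little there.

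The share of cells with TBC1D32 above 0 was lowest in control. It was 33 of 46 control cells (71.7%, exact Clopper-Pearson 95% interval 56.5 to 84.0). The shares in the treated conditions were between 88.7% and 93.4%, namely 52 of 56 and 47 of 53 cells for paclitaxel (16 and 48 h), 58 of 63 and 57 of 61 for celecoxib (2 and 16 h), and 53 of 59 for the combination. The interval at 16 h of celecoxib, 84.1 to 98.2, lay just above that of control, and those of the other treatments overlapped it. For GJA1 the shares ran from 41 of 46 control cells (89.1%, 76.4 to 96.4) to 58 of 59 with both drugs (98.3%, 90.9 to 100.0), with overlapping intervals. Control cells had the highest median of genes detected, and within the window of 5500 to 7000 genes detected the TBC1D32 share was 72.2% in control and between 88.4% and 96% in the treatments. These intervals cover counting error only, and cells of 1 sample are not replicates of a condition. The control cells also entered the choice of the pair, which favours low control values for both genes. How many of all genes have intervals apart from control was not counted.

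Against control, the values that led to the choice were differences in mean E-value of 0.80 for GJA1 (1.74-fold) and 0.77 for TBC1D32 (1.70-fold) at 16 h of paclitaxel. In cells with 5500 to 7000 genes detected the GJA1 difference was 0.54, within the limit. Of all genes, 0.0932% were past the limit upward, and the median of all genes was -0.41. With equal totals per cell the differences were 1.40 and 1.17, where 1.40% of genes passed and the median was -0.07. Nothing is read from these shares, because the same contrast chose the genes. Just inside the threshold stood TBC1D32 at 0.77, and just outside it were ANKRD20A1, a member of a repeated ankyrin gene family, and VMO1 (listed above 0 in 21.7% of control cells), both at 0.76, and the interferon-induced IFITM1 at 0.71. Without the detection condition ALDOC, a glycolytic aldolase, ranked above both genes at 0.83, but it was listed above 0 in only 2.17% of control cells. By the log2 ratio of the linear means, 0.67 and 0.68, GJA1 and TBC1D32 ranked only at places 270 and 266.

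At 48 h of paclitaxel, which the choice did not use on the treated side, the genes parted on the deposited scale. GJA1 differed from control by 0.24, within the limit, and TBC1D32 by 0.79, past it, where 0.922% of all genes passed upward. Both passed at the same total, at 0.66 and 1.06, where 3.28% of all genes did. The cells of 48 h came from a pair of library index blocks (runs of 96 index numbers in the labels), and the block that also holds every control cell gave 0.08 for GJA1 and 0.74 for TBC1D32 from 31 cells, or 0.40 and 0.96 at the same total. GJA1 thus did not pass the limit in the only contrast with control that stays within a block, and TBC1D32 did. From 16 to 48 h of paclitaxel GJA1 differed by -0.56, just within the limit, where 0.352% of genes passed it downward, and by -0.74 at the same total, where 1.18% of genes passed downward. TBC1D32 differed by 0.02 and -0.11.

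At 2 h of celecoxib GJA1 was higher than control by 0.50 and TBC1D32 by 0.62, where 1.12% of genes passed the limit upward. Set to the same total, the differences were 0.86 and 0.83, and 3.31% of genes passed. At 16 h of celecoxib, when summed RNA was lowest, the deposited values were close to control, at 0.03 for GJA1 and 0.20 for TBC1D32, where 0.383% passed upward. The median of all genes was -0.48 there, and at the same total the differences were 1.08 and 0.96, where 7.37% of genes passed. From 2 to 16 h the differences were -0.47 and -0.41, both within the limit, while 19.4% of genes passed it downward. With equal totals the direction turned, to 0.22 and 0.13. Paclitaxel for 16 h against celecoxib for 16 h gave 0.78 for GJA1, past the limit, and 0.56 for TBC1D32, where 12.5% of genes passed upward. With equal totals the values were 0.32 and 0.21, both within the limit, and the paclitaxel cells in this comparison are those that chose the genes.

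With both drugs the deposited differences were the largest of the 5 treatments, 1.49 for GJA1 (2.81-fold) and 1.93 for TBC1D32 (3.82-fold). Upward calls were common in that comparison, at 30.4% of genes with a median of 0.33, so that GJA1 was at place 191 and TBC1D32 at place 40 of 9655. After rescaling to the same total they were 0.83 and 1.18, where 5.96% of genes passed. Against paclitaxel alone at 16 h, the combination was higher by 0.69 and 1.17, beside a median over all genes of 0.80 and 62.5% of genes past the limit. Against celecoxib alone at 16 h it was higher by 1.47 and 1.73, beside a median of 0.88 and 66.0% of genes. Rescaled to the same total, these differences were -0.58 and 0.01 against paclitaxel, and -0.25 and 0.22 against celecoxib, all within the limit. Within the index block shared by the combination and paclitaxel cells the same-total values were -0.64 for GJA1, past the limit, and 0.16 for TBC1D32. The median of all genes there was 0.10, and the share past the limit was not counted. High values in these paclitaxel cells led to the choice of the genes, which favours a lower GJA1 value in the combination. Within the block shared with the celecoxib cells the same-total values were -0.17 and 0.01, beside a median of -0.01.

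**Figure D2:**
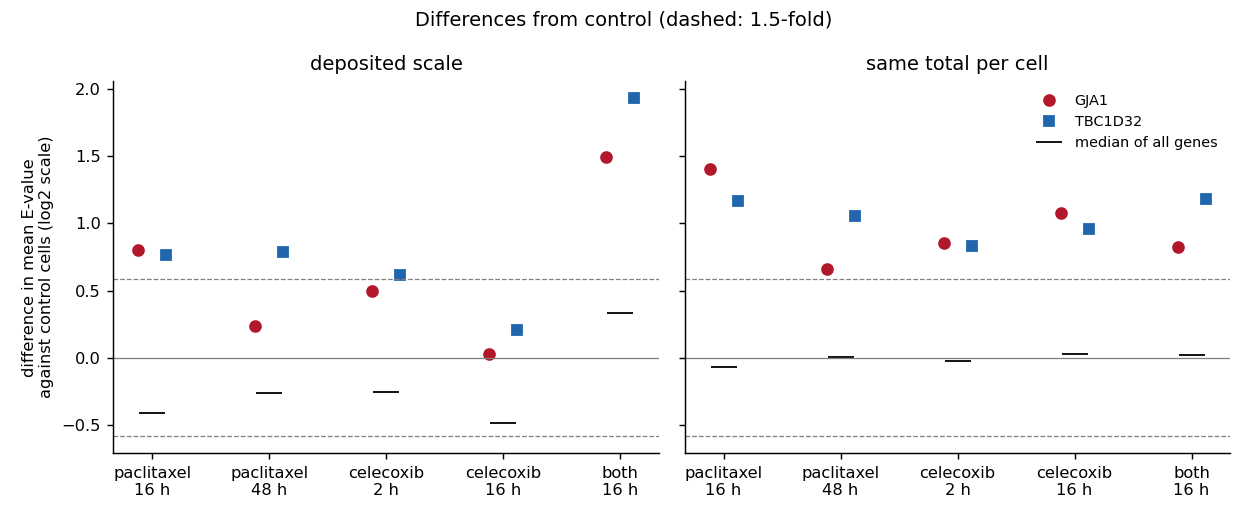
Differences in mean E-value from control cells for GJA1, TBC1D32 and the median of all genes, on the deposited scale (left) and at the same total per cell (right), with the 1.5-fold limit dashed. On the right every point of both genes lies above the limit, from 0.66 to 1.40, and the medians of all genes lie between -0.07 and 0.03.

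At the same total both genes were past the limit upward in all 5 treatments, which held for 30 of 9655 genes (0.311%). This count includes the contrast that chose the pair, and all 5 differences rest on the same 46 control cells, so they are not 5 separate observations. On the deposited scale both means were above control in all 5 treatments, as for 346 genes (3.58%). At 16 h of celecoxib that sign depended on the mean of E-values, since the log2 ratios of the linear means were -0.30 and -0.09 and the medians of GJA1 differed by -0.10.

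The level of the genes also differed between the transcriptional states that the authors gave to each cell from its expression profile. These states were assigned from the same expression table, so the values are a description. The few cells assigned as activated under single drugs (2 given paclitaxel for 16 h, 4 given celecoxib for 2 h) are left out here. At 48 h of paclitaxel GJA1 was at 3.48 ± 1.13 (SD) in 28 cells assigned as control-like and at 2.06 ± 1.89 in 25 assigned as suppressed. TBC1D32 was at 2.82 ± 1.28 and 2.04 ± 1.48. The gap narrowed at the same total to 3.26 against 2.40 for GJA1 and 2.63 against 2.36 for TBC1D32. At 2 h of celecoxib GJA1 was at 3.80 ± 1.15 in 26 control-like and 2.38 ± 1.53 in 33 suppressed cells, and at 3.56 and 2.64 at the same total. TBC1D32 was at 2.62 ± 1.40 and 1.98 ± 1.56 there, and at 2.43 and 2.21 at the same total. At 16 h of paclitaxel GJA1 was at 3.54 ± 1.42 in 23 control-like and 3.07 ± 1.37 in 31 suppressed cells, and TBC1D32 at 2.27 ± 1.28 and 2.46 ± 1.42. At the same total the suppressed cells were higher for both genes, with 3.42 in control-like and 3.66 in suppressed cells for GJA1, and 2.16 and 2.97 for TBC1D32.

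Cells with more GJA1 tended to have more TBC1D32 in every condition. Pearson's r between the E-values was 0.37 in control (46 cells), 0.43 and 0.71 after paclitaxel for 16 and 48 h (56 and 53 cells), 0.44 and 0.33 after celecoxib for 2 and 16 h (63 and 61 cells) and 0.57 after the combination (59 cells). Rescaled cells gave values of 0.36, 0.37, 0.70, 0.38, 0.34 and 0.54 in the same order. The points of a condition share 1 sample and differ in depth, and on the deposited scale each cell's own spike-in factor scales both genes. GJA1 correlated with the log2 total at r between 0.04 and 0.49 and TBC1D32 at r between -0.18 and 0.28 on the deposited scale. Without the 2 cells farthest from the median GJA1 value, r stayed between 0.30 and 0.68. At 48 h of paclitaxel r was 0.80 and 0.62 within the index blocks, and 0.58 and 0.75 within control-like and suppressed cells.

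Most cells held both transcripts. Of 338 cells 288 were above 0 for both genes, 33 for GJA1 alone, 12 for TBC1D32 alone and 5 for neither. In control, 10 of 46 cells had GJA1 without TBC1D32 and 2 the reverse. Among cells with both above 0 the correlation was between 0.28 and 0.69 over the conditions.

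**Figure D3:**
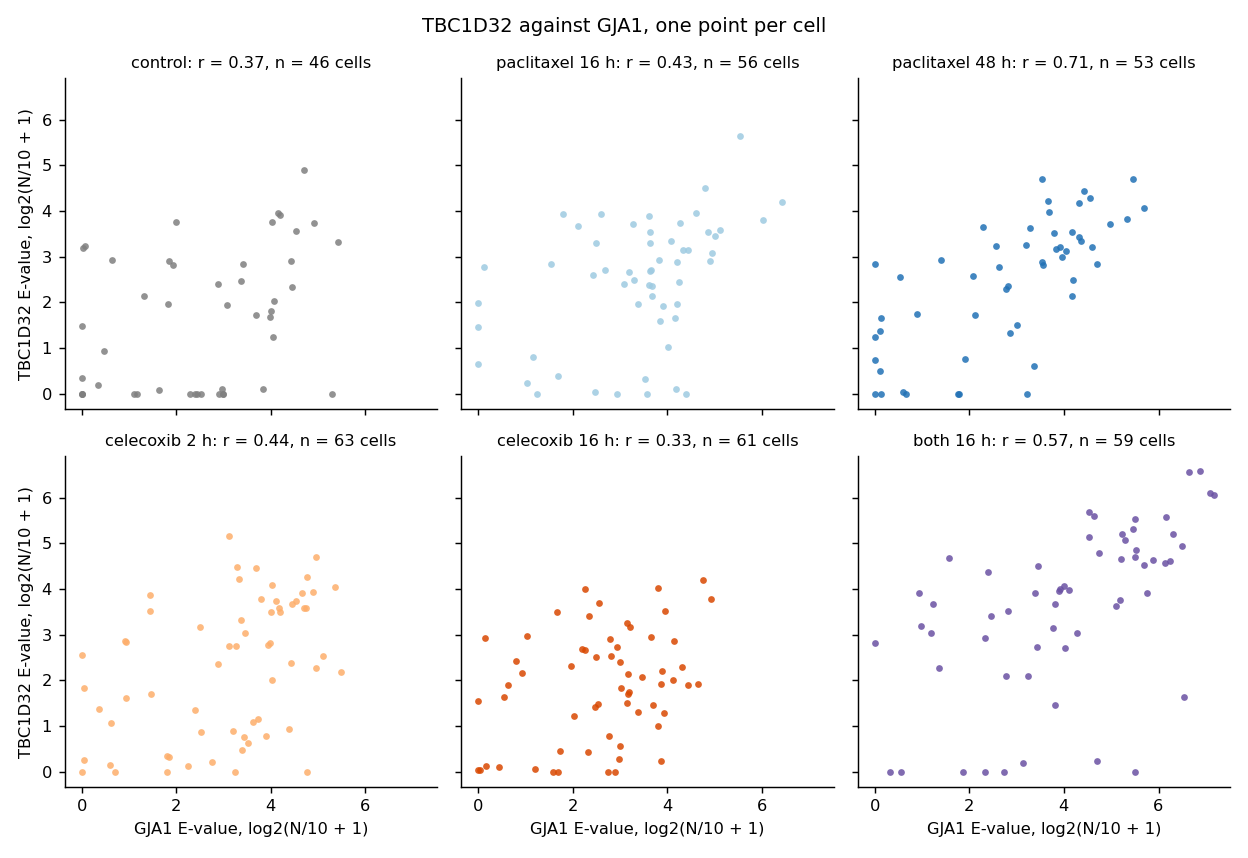
TBC1D32 against GJA1 on the deposited scale, with a point for each cell and a panel for each condition. The points follow each other most closely at 48 h of paclitaxel (r = 0.71) and least at 16 h of celecoxib (r = 0.33).

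Over all 338 cells, with E-values at the same total and centred within each condition, r was 0.45. TBC1D32 was then at place 7 of 7560 genes by likeness to GJA1, and GJA1 at place 1 by likeness to TBC1D32. The median r of the other genes was 0.004 with GJA1 and 0.007 with TBC1D32, and the 99th percentiles were 0.239 and 0.237. Within single conditions the place varied. The pair was at place 1 from both sides at 48 h of paclitaxel, at 8 and 1 with both drugs, and at 129 and 178 in control.

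**Figure D4:**
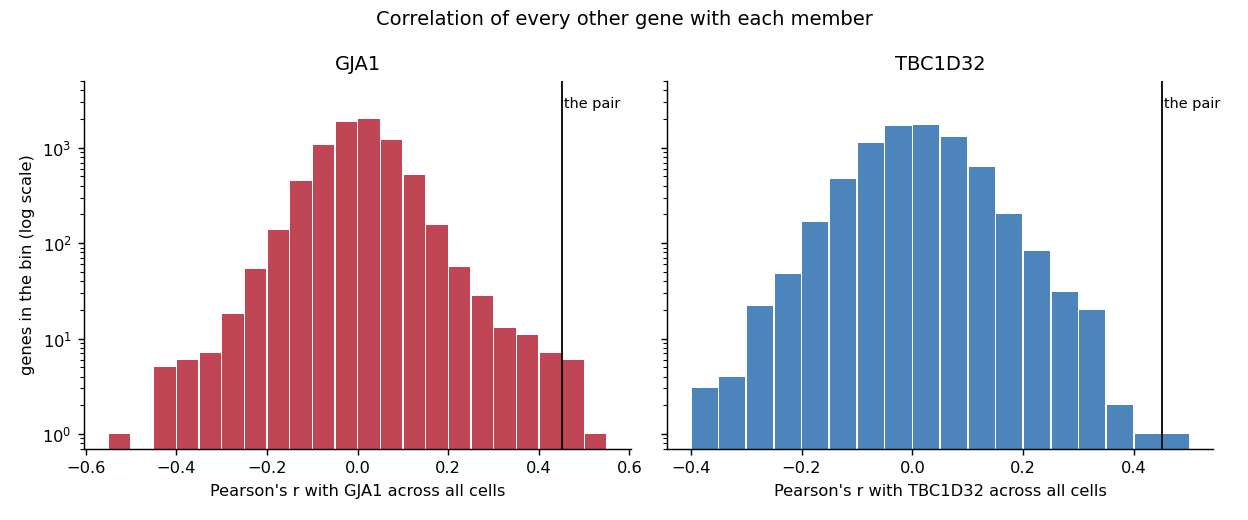
Number of genes (log scale) by their Pearson's r with GJA1 (left) and with TBC1D32 (right) across 338 cells, at the same total and centred within condition. The vertical line marks the pair at r = 0.45, and most of the 7560 genes lie close to 0.

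The 5 genes most like GJA1 by this measure were DPPA4 (r = 0.54), SNCG (0.50), ANXA1 (0.48), GPM6A (0.46) and MAP2K6 (0.45). DPPA4 is a nuclear protein of pluripotent cells, SNCG is gamma-synuclein, ANXA1 binds phospholipids in the presence of calcium, GPM6A is a membrane glycoprotein of neurons, and MAP2K6 is a kinase that activates stress-responsive MAP kinases. For TBC1D32 the genes after GJA1 were GPM6A (0.43), DPPA4 (0.39), EFEMP1 (0.36), an extracellular matrix protein, and ABCA5 (0.35), a lipid transporter. GPM6A and DPPA4 were thus on both lists. SNCG at the same total was past the limit upward in all 5 treatments, with differences from 1.22 to 2.06, and the differences of GPM6A were between -0.05 and 0.71. At the other end, DTNA, a dystrophin-associated protein picked after its values were seen, had r of -0.51 with GJA1 and -0.37 with TBC1D32, and its r with GJA1 was negative in each condition, from -0.58 to -0.44.

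For neighbouring genes such a correlation was uncommon. Among 4372 pairs of consecutive analysed genes whose starts lie within 150 kb on a chromosome, the median r was 0.03 and 25 pairs (0.572%) reached 0.45 or more. Among the 1295 pairs that face away from each other, 4 (0.309%) did. The 25 and the 4 each include GJA1 with TBC1D32. Gene pairs in this set differ in level and detection, and none of the counts is a test.

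Of 22 analysed genes within 5 Mb of the pair, 0 were past the limit upward and 1 downward at 16 h of paclitaxel at the same total, with a median of 0.07. The counts upward were 0 after paclitaxel for 48 h, 1 after celecoxib for 2 h, 1 after celecoxib for 16 h and 2 after the combination. These are 0% to 9.09% of the 22 genes, beside shares over all genes of 1.40%, 3.28%, 3.31%, 7.37% and 5.96% in the order of the treatments. The nearest analysed genes on the GJA1 side are HSF2, a heat shock transcription factor, SERINC1, a membrane protein, and PKIB, an inhibitor of protein kinase A, about 1 Mb away. Their differences at 16 h of paclitaxel at the same total were -0.05, -0.38 and 0.02. On the TBC1D32 side FAM184A was at 0.49, the helicase gene MCM9 at -0.34 and the histone chaperone gene ASF1A at -0.69. Correlations of these 6 genes with GJA1 were between -0.04 and 0.12, and with TBC1D32 between -0.03 and 0.17.

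**Figure D5:**
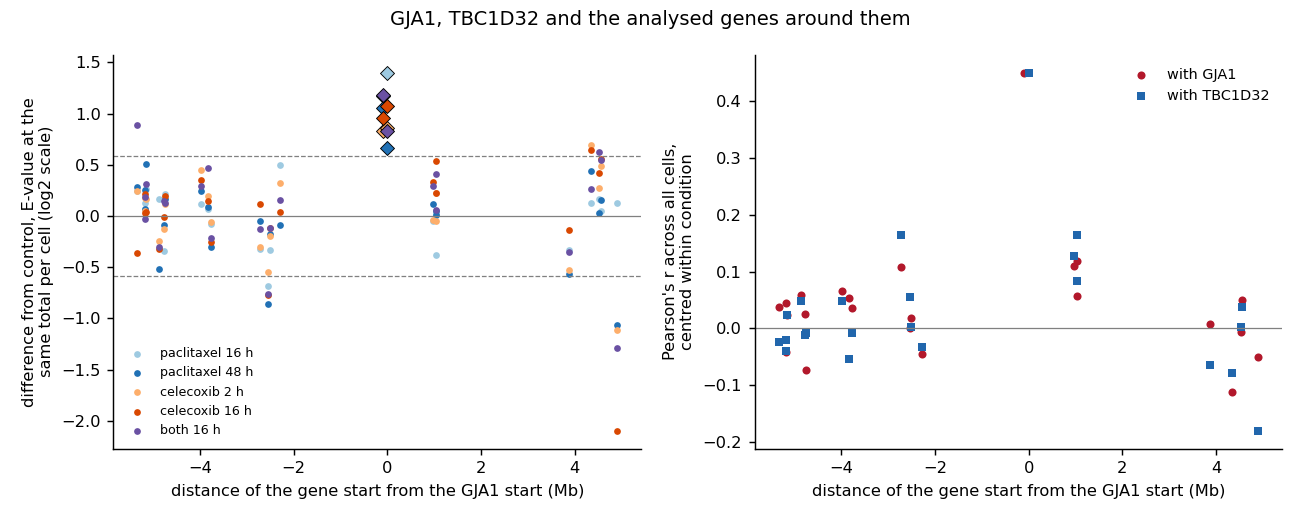
GJA1, TBC1D32 and the 22 analysed genes within 5 Mb, by distance of the gene start from the GJA1 start. Left, differences from control at the same total for the 5 treatments, with the pair as diamonds above the dashed 1.5-fold limit. Right, Pearson's r with GJA1 and with TBC1D32, where the pair alone stands at 0.45.

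Other gap junction genes were sparse. Of 24 connexin and pannexin genes, 3 were in the table, and besides GJA1 these were GJC1, which encodes connexin 45, and the channel gene PANX1. GJC1 was at a mean E-value of 0.88 in control and PANX1 at 0.35, against 2.57 for GJA1. Neither passed the limit in any treatment on either scale, with same-total differences between -0.16 and 0.09 for GJC1 and between -0.19 and 0.23 for PANX1.

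The 18 analysed genes of known connexin 43 partners (scaffolds, kinases, ubiquitin ligases and transport proteins) had counts that moved with the scale. At 16 h of paclitaxel 0 passed the limit upward and 9 downward on the deposited scale, and with both drugs 8 and 0 did. With equal totals the counts were 0 and 1, and 3 and 0. Over all genes 37.3% passed downward at 16 h of paclitaxel on the deposited scale, or 10.0% with equal totals, and with both drugs 30.4% and 5.96% passed upward. CTNNB1, which encodes beta-catenin, differed by -1.44 at 16 h of celecoxib but by -0.20 at the same total. The microtubule end-binding gene MAPRE1 was at -1.39 and -0.77 at 16 h of paclitaxel. With both drugs EZR, which links membrane to actin, was at 1.38 and 0.70, the endocytic adaptor gene EPS15 at 1.37 and 0.78, and CTNNA1 (alpha-catenin) at 1.29 and 0.60.

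Among 30 other TBC domain genes, 0 were past the limit upward at 16 h of paclitaxel on either scale, with a median of 0.03 at the same total beside -0.07 over all genes. With both drugs 10 passed upward on the deposited scale and 1, TBC1D23, at the same total (1.32 and 0.77), beside 30.4% and 5.96% of all genes. TBC1D7, a subunit of the TSC complex, was at -1.57 and -0.63 at 16 h of celecoxib, and TBC1D15 was at -1.20 and -0.53. No TBC gene other than TBC1D32 was past the limit upward in all 5 treatments at the same total.

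Of 58 analysed cilium and Hedgehog genes, 3 were past the limit upward and 4 downward at 16 h of paclitaxel at the same total, and 8 and 2 with both drugs, with medians of -0.02 and 0.14. Over all genes 1.40% and 5.96% passed upward there, and 10.0% and 5.80% downward. WDR60, which encodes a chain of the dynein that moves cargo along the cilium, was the only gene of this list past the limit upward in all 5 treatments at the same total, with differences from 0.96 to 1.33. Its r with GJA1 was 0.17 and with TBC1D32 0.19. WDR34, another chain of that motor, went the other way, at -1.81 at 16 h of celecoxib and -0.88 at the same total. B9D1 of the ciliary transition zone (-2.00 and -1.20) and IFT22 of the intraflagellar transport machinery (-1.84 and -1.03) were also lower there. With both drugs the Bardet-Biedl gene TTC8 was at 1.63 and 1.00 and the kinesin subunit gene KIFAP3 at 1.47 and 0.85.

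The genes for AP-1 and Sp factors formed a list of 9 genes. The GJA1 window holds an AP-1 motif, and no window of either gene held the Sp1-type GC box. Of 6 analysed, FOS was at -3.15 and JUNB at -1.02 at 16 h of paclitaxel, and at -2.59 and -0.64 at the same total. FOSB (-0.67) and JUND (-0.78) were past the limit downward on the deposited scale and at -0.42 and -0.37 at the same total. Thus 4 of the 6 genes passed downward at 16 h of paclitaxel, and 2 with equal totals. Downward calls were common in that comparison, at 37.3% of all genes, or 10.0% with equal totals. With both drugs SP1 was at 0.66 and SP3 at 0.67, where 30.4% of all genes passed upward, and at 0.29 and 0.25 at the same total. In single cells the r of the 6 genes was from -0.06 (FOS) to 0.20 (JUND) with GJA1 and from -0.04 (FOS) to 0.15 (FOSB) with TBC1D32.

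GJA1 also belongs to a module of 73 genes that the study chose on these samples, for being higher in control-like cells at 48 h of paclitaxel and co-expressed across cell lines, so the module's direction there is not independent evidence. Of its other 72 genes, 2 were past the limit upward and 15 downward at 16 h of paclitaxel, and 21 and 0 at 48 h. With equal totals the counts were 11 and 3, then 52 and 0. The upward shares over all genes were 0.0932% and 0.922% on the deposited scale, and 1.40% and 3.28% with equal totals. The downward shares were 37.3% and 26.6%, and 10.0% and 5.78% with equal totals. The interferon-induced membrane gene IFITM1 differed by 1.32 at 16 h and 2.80 at 48 h at the same total, whereas GJA1 went from 1.40 to 0.66. The mean of the 72 genes per cell, at the same total, had r with GJA1 between 0.19 and 0.53 over the 6 conditions and r with TBC1D32 between 0.17 and 0.46, although TBC1D32 is no member of it.

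Genes of the G2/M phase were lower in the same treatments. Of 25 such genes, between 15 and 24 were past the limit downward in each treatment on the deposited scale and between 9 and 19 at the same total. Downward differences were common over all genes on the deposited scale, at 37.3% and 26.6% for paclitaxel (16 and 48 h), 25.7% and 43.9% for celecoxib (2 and 16 h) and 1.76% with both drugs, and at the same total the shares were 10.0%, 5.78%, 8.12%, 7.95% and 5.80%. The mitotic kinase gene AURKB was at -2.26 and the cyclin gene CCNB1 at -2.01 at 16 h of paclitaxel. The mean of the G2/M genes had r with GJA1 from -0.24 to 0.33 and with TBC1D32 from -0.20 to -0.01 within conditions. Their part in the values of the pair was not tested.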

How the data were processed

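The authors trimmed reads with Trim Galore, ran RSEM 1.3.0 (with Bowtie2) against hg38 GENCODE 28 transcripts plus 3 spike-in RNAs, and divided each cell's TPM by its highest spike-in. They removed 34 of 372 cells, and a gene had to be found in over 30% of cells in some condition. The log2 values deposited by the authors are E = log2(N/10 + 1). The deposited state per cell was used as the authors' annotation.

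Mean E-values per condition were compared without a test, since each condition is 1 sample. N was recovered from E, and each cell was also rescaled to the median total. Shares have exact 95% intervals. Python 3.11.15, numpy 2.4.6, pandas 2.3.3 and scipy 1.17.1 were used, and the steps were tested on simulated data. No doublet caller was run, since no counts were given.

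The members and lists were chosen with earlier results of these data known. Genes named were the pair, the 3 next rises, the 3 nearest analysed genes on each side, the 5 most alike genes, the connexins analysed, and up to 6 genes per list past the limit with the largest single difference. A gene that this rule names is not reported here. Alternatives covered scaling, pseudocount, averaging, filters, depth, index blocks and well notes.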

Additional observations from a re-analysis of the deposited data

Results flagged for a closer look

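For GJA1 the difference made by a drug at 16 h had opposite signs without and with the other drug, at the same total per cell. Celecoxib alone gave 1.08 against control and -0.58 when added to paclitaxel, and paclitaxel alone gave 1.40 and -0.25 when added to celecoxib. The 1.08 and 1.40 were past the limit of 0.585, and the -0.58 and -0.25 were within it. Within the index block shared by the combination and paclitaxel cells the first of the negative values was -0.64, past the limit. The median of all genes there was 0.10, and the share past the limit was not counted. Both pairs of values come from the same 4 conditions and form a single contrast, and GJA1 was chosen for its values at 16 h of paclitaxel, which enter both. The difference between these effects was not tested, since each condition is 1 sample. On the deposited scale the 4 values were all positive, at 0.03 and 0.69 for celecoxib and 0.80 and 1.47 for paclitaxel. For TBC1D32 the same-total values were 0.96 and 0.01 for celecoxib, and 1.17 and 0.22 for paclitaxel.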

How the results depend on the processing

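At the same total per cell GJA1 differed from control by 1.40, 0.66, 0.86, 1.08 and 0.83 (paclitaxel 16 and 48 h, celecoxib 2 and 16 h, both), and TBC1D32 by 0.96 at 16 h of celecoxib and 1.18 with both. With log2(N + 1), GJA1 was at 0.80 at 2 h of celecoxib, and TBC1D32 at 1.48, 1.45, 1.23, 0.72 and 2.79 in the same order of treatments. In cells with 5500 to 7000 genes detected, GJA1 was at 0.54 at 16 h of paclitaxel, within the limit, and at 0.68 at 2 h of celecoxib, past it. The cause of these moves was not tested. No called difference from control changed sign. The combination against each single drug did for GJA1, from 0.69 and 1.47 to -0.58 and -0.25 at the same total, where both were within the limit. The uncalled differences from 2 to 16 h of celecoxib also changed sign for both genes. Without the 1 combination cell from a well noted as empty or debris, TBC1D32 differed by 1.95 and GJA1 stayed past the limit. At 16 h of celecoxib, where neither gene was called, the log2 ratios of linear means were -0.30 and -0.09.

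Cells above an E-value of 1 made up 77.4%, 82.5% and 83.6% for GJA1 at 48 h of paclitaxel and 2 and 16 h of celecoxib, and 80.4%, 71.4% and 75.4% for TBC1D32 at 16 h of paclitaxel and 2 and 16 h of celecoxib. The correlation with both drugs was 0.68 in index block 3 alone, an alternative chosen after seeing the data, and 22 other values of r stayed within 0.1.

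The number of genes past the limit upward, 9, 89, 108, 37 and 2936 in that order, became 135, 317, 320, 712 and 575 at the same total, and 304, 710, 709, 266 and 6969 by ratios of linear means. With log2(N + 1) it was 134, 462, 378 and 230 for the single drugs, and with detection in over 50% of cells it was 5 at 16 h of paclitaxel.

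No paired analysis was possible because each condition is 1 sample and cell numbers pair no cells. Read depth is unknown, so a value of 0 in a cell does not show absence, and cells were not thinned.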
